A study of Mus musculus with 4 samples.

Results

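The effect of blocking miR-9 without TGFB1 was described from H3K4me3 HiChIP-seq of MLg cells, a mouse lung fibroblast line. HiChIP-seq ligates DNA ends that lie close together in the nucleus and then precipitates chromatin with an antibody, here against H3K4me3, so each sequenced pair joins 2 places and pairs from marked promoters are enriched. The library labelled miR-9-LOF came from cells transfected with an antagomiR against miR-9-5p at 60 nM, and the Control library is labelled WT and stands beside a negative control antagomiR in the protocol. Both were harvested 24 h after transfection without TGFB1. The other 2 libraries, TGFB1 and TGFB1+miR-9-LOF, received 5 ng/ml human TGFB1 for the last 4 h and served here as an independent pair of libraries with and without the antagomiR. There was 1 library per condition of 1 cell line, so every p-value and interval below covers counting error between 2 libraries and no biological spread. The members are the 20807 coding transcription start sites (TSS) on the 19 autosomes, described with the pairs whose ends both had mapping quality of at least 30.

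H3K4me3 is a histone mark deposited around the start sites of active and poised genes by SET1 and MLL methyltransferases, and most promoters that carry it are CpG islands. miR-9 is a microRNA best known for binding complementary messenger RNA through its seed. The series asks whether its nuclear form acts on chromatin contacts. Chromosomes also separate into A compartments, which are gene-rich and active, and B compartments, which are gene-poor and quiet.

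The antagomiR is directed at the mature strand below, shown from RefSeq (GRCm38.p6) because it is the molecule that was blocked. It is written 5′ to 3′ with its seed, bases 2 to 8, in capitals.
mmu-miR-9-5p: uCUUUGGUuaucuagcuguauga

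The next promoters show what lost and gained windows look like in sequence. Each is 300 bases from RefSeq (GRCm38.p6), from 250 bases before to 50 bases after the start, 5′ to 3′ on the gene's strand, and the capitals mark runs of 3 or more G or C. Atoh8, Irs1 and Rbms1 are among the H3K4me3-carrying promoters that fell most, whereas Nags gained relative to the median promoter and Asns relative to the median marked promoter.
Atoh8, chr6:72235528-72235827, minus strand: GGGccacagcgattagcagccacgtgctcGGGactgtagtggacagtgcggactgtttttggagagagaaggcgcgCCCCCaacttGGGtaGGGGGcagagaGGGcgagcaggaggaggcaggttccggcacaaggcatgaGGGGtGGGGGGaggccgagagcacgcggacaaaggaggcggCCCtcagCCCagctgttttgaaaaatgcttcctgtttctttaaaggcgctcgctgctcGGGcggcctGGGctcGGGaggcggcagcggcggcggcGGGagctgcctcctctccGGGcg
Irs1, chr1:82291390-82291689, minus strand: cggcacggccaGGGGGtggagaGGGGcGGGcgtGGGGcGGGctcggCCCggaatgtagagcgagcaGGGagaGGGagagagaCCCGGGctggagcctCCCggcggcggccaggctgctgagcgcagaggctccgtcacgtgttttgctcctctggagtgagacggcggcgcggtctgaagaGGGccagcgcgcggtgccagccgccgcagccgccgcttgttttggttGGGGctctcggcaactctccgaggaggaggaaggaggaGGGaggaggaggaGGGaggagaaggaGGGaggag
Rbms1, chr2:60963155-60963454, minus strand: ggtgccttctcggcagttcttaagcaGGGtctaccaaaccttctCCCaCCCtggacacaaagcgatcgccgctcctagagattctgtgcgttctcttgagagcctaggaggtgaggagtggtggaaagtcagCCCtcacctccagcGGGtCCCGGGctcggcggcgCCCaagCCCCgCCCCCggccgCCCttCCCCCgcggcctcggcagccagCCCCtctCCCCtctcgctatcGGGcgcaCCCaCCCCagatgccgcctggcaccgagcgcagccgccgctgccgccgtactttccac
Nags, chr11:102145263-102145562, plus strand: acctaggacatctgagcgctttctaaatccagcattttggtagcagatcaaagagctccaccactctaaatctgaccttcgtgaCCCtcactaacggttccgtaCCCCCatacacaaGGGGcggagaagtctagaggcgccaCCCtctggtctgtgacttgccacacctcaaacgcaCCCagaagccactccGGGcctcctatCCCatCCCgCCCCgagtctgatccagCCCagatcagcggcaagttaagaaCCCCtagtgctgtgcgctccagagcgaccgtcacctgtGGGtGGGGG
Asns, chr6:7693160-7693459, minus strand: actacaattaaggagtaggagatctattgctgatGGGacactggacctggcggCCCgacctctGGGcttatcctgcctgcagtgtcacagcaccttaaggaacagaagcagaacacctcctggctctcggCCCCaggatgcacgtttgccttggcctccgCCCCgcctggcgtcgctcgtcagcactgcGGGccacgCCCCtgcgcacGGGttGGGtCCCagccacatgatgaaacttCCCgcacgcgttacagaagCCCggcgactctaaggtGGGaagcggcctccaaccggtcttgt

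Such runs stood in all 5, with 15 in Atoh8, 16 in Irs1, 17 in Rbms1, 13 in Nags and 13 in Asns. They are described over all promoters further on.

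After filtering, Control held 13148144 pairs and miR-9-LOF 12617104, beside 9349493 for TGFB1 and 12058489 for TGFB1+miR-9-LOF. Of autosomal pairs 86.3% passed the mapping quality filter in miR-9-LOF and 90.3% to 90.6% in the other libraries. At any mapping quality the counts below would be 2405 promoters gained and 1743 lost. A TSS lay within 2 kb of 14.1% of the ends in Control (95% Wilson interval 14.06 to 14.08%) and of 8.54% in miR-9-LOF (8.53 to 8.55%). TGFB1 had 10.997% and TGFB1+miR-9-LOF 7.71%, so both antagomiR libraries lay below both others, and Control was highest. To compare like with like, Control pairs were thinned at random by their ends near a TSS until 8.54% of its ends lay there too, which left 11706667 pairs. A share of 17.98% of the TSS (3742) lay within 4 kb of another, so their windows overlap, and such promoters are named together.

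Relative to the median promoter, and with at least 40 pairs in both libraries together, 2242 of 17660 promoters gained pairs in miR-9-LOF, or 12.7%, and 1462 lost them, or 8.28% (exact binomial test, Benjamini-Hochberg adjusted p of at most 0.05 and at least 1.5-fold). The gains and losses fell on different kinds of promoter. Promoters were therefore classed by their enrichment in the TGFB1 and TGFB1+miR-9-LOF libraries, which did not enter the comparison. Those with at least 4 times the ends of their own flanks, 20 to 100 kb away, are called marked, and those under 1.5 times unmarked. This class was added after the counts had been seen. The number of losses depends on the settings, with 424 in windows of 1 kb and 262 with at least 100 pairs.

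Of the 2795 marked promoters tested, 732 lost and 9 gained pairs, with a median log2 change of -0.45 (quartiles -0.59 and -0.32). Of the 7755 unmarked promoters tested, 63 lost and 1789 gained pairs, with a median of 0.49 (quartiles 0.18 and 0.79). The 7110 between them, called intermediate, gave 667 losses and 444 gains and a median of -0.20. At full depth, before matching, the median marked promoter had 39.2 pairs per 1000000 pairs of the library (CPM) in Control and 19.97 in miR-9-LOF, whereas the median unmarked promoter had 3.27 and 3.41, untested promoters included. Over the tested ones alone the median log2 ratio of CPM was -0.97 at marked and -0.04 at unmarked promoters. Of the 2242 gained windows 1789 were thus in the class with little H3K4me3 signal. Of the 10633 unmarked promoters 7755 reached the minimum number of pairs, which was counted after Control had been thinned. Windows near that minimum pass more readily where miR-9-LOF is high, so the gains among unmarked promoters may be partly selected.

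**Figure D1:**
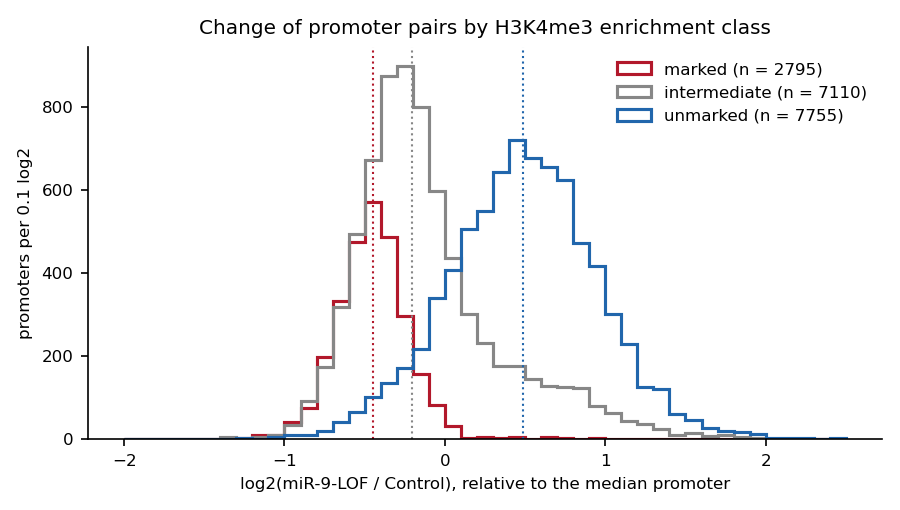
Histogram of the log2 ratio of pairs in miR-9-LOF over matched Control, relative to the median promoter, in steps of 0.1, for marked, intermediate and unmarked promoters. Dotted lines are the medians, -0.45, -0.20 and 0.49, and the marked and unmarked curves overlap little.

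The loss was nearly even over marked promoters. In 10 groups of rising pair number in the other 2 libraries the median log2 change lay between -0.49 and -0.42, and in 10 groups of rising GC content between -0.48 and -0.42. It was slightly larger where enrichment was higher, over 10 groups, from -0.38 in that with the lowest enrichment (median 4.10-fold over the flanks) to -0.57 in the highest (8.85-fold). The SD over marked promoters was 0.23, against 0.13 from counting alone. With 1 library per condition this excess cannot be told apart from library-to-library spread.

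When each promoter was set against others of like level in the TGFB1 libraries, in 20 groups, 523 gained (2.96%) and 785 lost (4.45%). Of these, 7 gained and 87 lost promoters were marked. When marked promoters were set against the median marked promoter, 24 of 2795 gained (0.859%) and 18 lost (0.644%). The other marked promoters did not pass the test against that median.

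The second pair of libraries went the same way for most calls. From TGFB1 to TGFB1+miR-9-LOF, matched alike, 1331 of 1460 lost promoters that could be compared had a value below the median (91.2%), as against 81.2% of all promoters below the median in the first pair. Of 2102 gained promoters 1916 lay above it (91.2%), as against 81.9%. Among marked promoters relative to their own median, 12 of 18 lost and 19 of 24 gained promoters kept their direction, as against 55.6% and 55.5% of all marked promoters below and above it. Pearson's r across promoters between both pairs was 0.65 over 17037 promoters and 0.30 over 2793 marked ones, and promoters of 1 library share its depth and composition.

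Among marked promoters with at least 200 pairs the lowest value relative to their median was at Fst, which encodes follistatin, a secreted antagonist of activins. Its window (chr13, TSS at 114458951, minus strand) held 311 pairs in Control and 98 in miR-9-LOF, beside 119 with TGFB1 alone and 112 with TGFB1 and the antagomiR. Control was the high library, also in CPM (23.7, against 7.77 to 12.7 in the other 3). After matching, 198 pairs in Control stood against 98, a log2 change of -1.29 relative to the median promoter (95% exact counting interval -1.66 to -0.94) and of -0.84 relative to the median marked promoter (-1.21 to -0.49). The second pair gave 0.02 relative to the median promoter (-0.42 to 0.46), so no fall relative to that median was seen there. The marked class had a median of -0.32 in that pair.

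Atoh8 encodes a basic helix-loop-helix transcription factor. Its promoter held 814 pairs in Control and 234 in miR-9-LOF, beside 429 with TGFB1 alone and 275 with TGFB1 and the antagomiR, so both antagomiR libraries lay below both others. The matched log2 change was -1.26 (-1.50 to -1.03), with -0.63 in the second pair (-0.87 to -0.38). Zeb1, a transcriptional repressor that drives the epithelial to mesenchymal transition, held 358 pairs in Control and 112 in miR-9-LOF, beside 175 with TGFB1 alone and 101 with TGFB1 and the antagomiR. Here too both antagomiR libraries lay below both others, with a change of -1.15 (-1.50 to -0.81) and a second-pair change of -0.83 (-1.23 to -0.44). The share of all ends near a TSS had the antagomiR libraries lowest as well, so this order is not particular to Atoh8 and Zeb1. Relative to the median marked promoter Zeb1 was at -0.70 (-1.05 to -0.36) and, in the second pair, at -0.51 (-0.91 to -0.12).

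Rbms1, an RNA-binding protein gene, had 840 pairs in Control and 270 in miR-9-LOF, beside 331 with TGFB1 alone and 272 with TGFB1 and the antagomiR, and a change of -1.12 (-1.34 to -0.91). Irs1, the adaptor of the insulin receptor, had 871, 284, 371 and 271 in the same order, with -1.10 (-1.32 to -0.89). Dusp4, a phosphatase that switches off MAP kinases, had 501, 177, 237 and 159, with -1.11 (-1.39 to -0.84). At these 3 promoters Control stood above TGFB1 also in CPM, and the second-pair changes of -0.32, -0.49 and -0.59 were smaller. Rnf150, a ring finger gene, fell by 1.14, and Sept7, a septin of the cytoskeleton, by 1.16.

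Of promoters that share a window, Brix1 (ribosome biogenesis) and Rad1 (the checkpoint clamp) start close together on opposite strands and held 626 and 627 pairs in Control and 212 and 213 in miR-9-LOF. Their changes were -1.14 and -1.14. Krit1 and Ankib1, also divergent, changed by -1.12 and -1.10. The 2 members of each such couple count the same pairs.

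Outside the marked class, among calls with at least 200 pairs, the largest losses were at Kctd5, an adaptor of a ubiquitin ligase, and Nadk, the NAD kinase. Kctd5 held 264 pairs in Control and 68 in miR-9-LOF, beside 100 with TGFB1 alone and 105 with TGFB1 and the antagomiR, a change of -1.55 (-1.99 to -1.14), with 0.13 in the second pair (-0.33 to 0.60). Nadk held 220, 71, 115 and 80 in that order, with -1.33 (-1.77 to -0.92). Patl1 (messenger RNA decay) and Mras (a small GTPase) changed by -1.24 and -1.13. At Kctd5 Control alone was high. Relative to the median promoter, TGFB1 and TGFB1+miR-9-LOF did not differ there beyond counting error.

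Gains with many pairs were fewer, since only 54 of the 2242 gained promoters had at least 200 pairs. The largest was at Gm10800 (chr2, TSS at 98667301), with 653 pairs in Control and 1135 in miR-9-LOF, beside 378 with TGFB1 alone and 742 with TGFB1 and the antagomiR, a change of 1.41 (1.23 to 1.58). Its neighbour Gm10801 changed by 0.83 and 4931408C20Rik by 0.67. Gm10800 and Gm10801 lie in a repeat-rich stretch of mm10 that is often masked in ChIP-seq work. After matching, their windows held 1 and 0 contacts at 20 kb to 2 Mb in Control and 6 and 1 in miR-9-LOF, so their values are uncertain as promoter signal. Sfi1, a centrin-binding protein gene with multiple copies in the genome, held 873 pairs in Control and 769 in miR-9-LOF, beside 576 with TGFB1 alone and 756 with TGFB1 and the antagomiR. It stood at 0.36 relative to the median promoter (0.20 to 0.53), short of the 1.5-fold limit, and at 0.81 relative to the median marked promoter (0.65 to 0.98), where it was called. It is uncertain for the same reason.

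The other named gains were at windows with low enrichment. Nags, which makes the activator of the urea cycle, held 134 pairs in Control and 175 in miR-9-LOF, beside 134 with TGFB1 alone and 158 with TGFB1 and the antagomiR, or 10.2 and 13.9 CPM in Control and miR-9-LOF at full depth. Its matched change was 1.06 (0.65 to 1.49), with 0.35 in the second pair (-0.04 to 0.75). Alkbh6, Dcxr, Catsper1, Gng3, Ccdc187, Dqx1, 6030468B19Rik and the overlapping Mpig6b and Ly6g6c changed by 0.83 to 0.97. In windows of 5 kb to each side of the TSS, in place of 2 kb, Dqx1 turned to the opposite direction, at -0.53. None of these 9 carried 4-fold enrichment. Before matching, these 9 had 9.96 to 13.2 CPM in Control and 11.1 to 13.8 in miR-9-LOF, a small gap. The median promoter was lower in miR-9-LOF before matching, and the changes above are relative to it.

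Among marked promoters, those that were higher than the median marked promoter included Prkg1, a cyclic GMP-dependent kinase (0.93, 0.53 to 1.34), Zfp180 (0.80), Ufsp1 (0.71), Smim3 (0.69), Cyp51 of sterol synthesis (0.66) and Asns, the asparagine synthetase (0.65). Relative to the median promoter, Smim3 stood at 0.24 with 2 kb and at -0.03 with 5 kb to each side of the TSS. Asns held 250 pairs in Control and 200 in miR-9-LOF, beside 142 with TGFB1 alone and 155 with TGFB1 and the antagomiR. In CPM these were 19.01, 15.9, 15.2 and 12.9, so the promoter was lower in miR-9-LOF than in Control by less than the median marked promoter was.

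**Figure D2:**
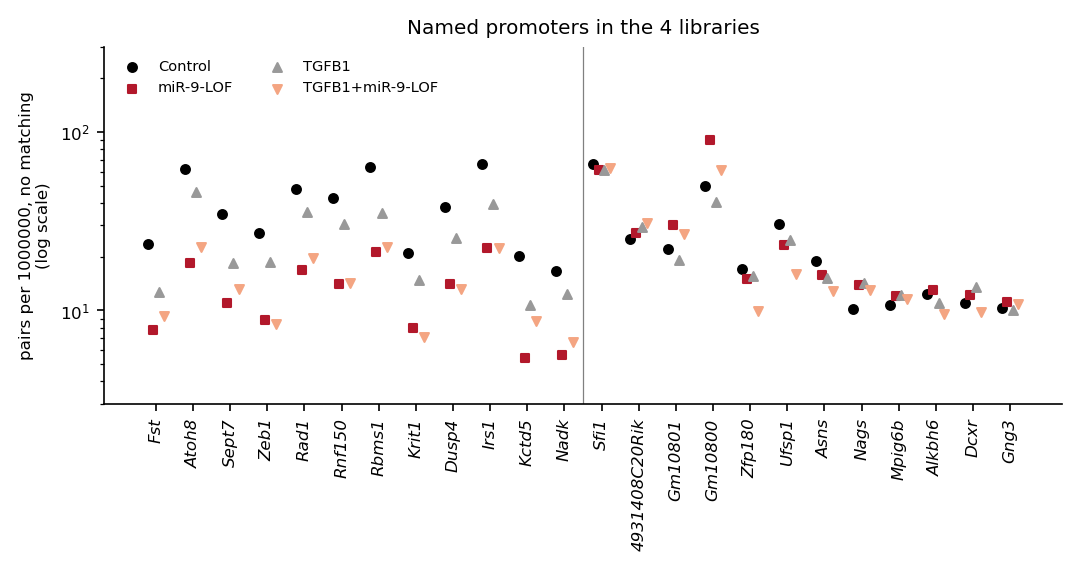
Pairs per 1000000 (CPM) at full depth, on a log axis, for named promoters in the 4 libraries, 1 point per library and no error bars. Left of the line are lost promoters, where Control is the highest library, and right of it promoters that gained relative to the median promoter or the median marked promoter, where the points lie closer together except at Gm10800.

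The counts of the gene lists are set beside the shares over all promoters and, in some, over a class. Of the 19 TGFB pathway promoters 6 were lost and 0 gained, with a median change of -0.46, beside losses at 8.28% of all promoters and at 732 of 2795 marked ones. The type III receptor gene Tgfbr3 held 643 pairs in Control and 234 in miR-9-LOF, beside 317 with TGFB1 alone and 228 with TGFB1 and the antagomiR, and changed by -0.93 (-1.18 to -0.70). Smad7, an inhibitor of the pathway, changed by -0.85 (-1.07 to -0.64), the inhibitor Smad6 by -0.65, the receptor Acvr1 by -0.67, the corepressor Ski by -0.59 and the signal transducer Smad2 by -0.79. In the second pair Smad2 stood at 0.09 (-0.50 to 0.70), with the others lost here at -0.48 to -0.29 and 0 of the 6 called. Tgfb1 itself was at -0.27, Tgfbr2 at -0.51 and Smad3 at -0.41. Relative to the median marked promoter the 11 marked members had a median of -0.13, with 0 called either way.

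Of the 21 immediate early promoters, which respond to growth factors within minutes, 7 were lost and 1 gained, with a median of -0.44, beside losses at 8.28% and gains at 12.7% of all promoters and losses at 732 of the 2795 marked ones, the class of 8 of these 21. Klf4, a pluripotency factor, fell by 1.00 on the log2 scale. Klf6 fell by 0.83, Id1 by 0.79, Klf10 by 0.76, Id2 by 0.76, Myc by 0.75 and Jun by 0.62. Myc held 1119 pairs in Control and 471 in miR-9-LOF, and its matched counts of 654 and 471 gave an interval of -0.93 to -0.58. The stress factor Atf3 gained (0.88, 0.22 to 1.61) from 49 pairs in Control and 61 in miR-9-LOF. Fosl1 stood at 0.23 and Fosb at -0.01. The 8 marked members had a median of -0.30 relative to the median marked promoter and -0.14 in the second pair, with 0 called.

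Of the 21 lung mesenchyme factors, 11 of which were marked, 5 were lost and 2 gained, with a median of -0.42 and against the same shares over all promoters. The losses included Zeb1 and Gli2, a Hedgehog effector, at -0.76. The other losses were Gli3 (-0.68), Snai2 (-0.72) and Tbx3 (-0.61). Both gains were at unmarked windows of few pairs, at Tcf21, a factor of lung mesenchyme development (0.93, 0.23 to 1.70), and at Tbx4, a T-box factor of the lung and limb (0.77, 0.29 to 1.28). Tcf21 held 46 pairs in Control and 56 in miR-9-LOF before matching, and Tbx4 held 110 in each. In the second pair Tcf21 had the opposite sign (-0.37, -0.99 to 0.25) and Tbx4 stood at 0.21 (-0.25 to 0.69), and neither was called. Tbx4 also gained relative to promoters of like level. Their contacts at 20 kb to 2 Mb went from 5 to 27 and from 21 to 51, both called, or by 2.14 and 1.08 relative to the median, with 0.05 and 0.25 in the second pair. Another 6 of the 21 lost contacts, namely Gli2, Prrx1, Snai1, Twist1, Snai2 and Zeb1, beside 2.78% gained and 5.81% lost over all promoters. Relative to promoters of like level only Zeb1 and Tbx4 kept their contact calls. Of the fibroblast matrix genes 3 of 17 were lost and 0 gained, with a median of -0.30, beside losses at 8.28% and gains at 12.7% of all promoters. Fibronectin (Fn1) changed by -0.65, tenascin C (Tnc) by -0.63 and the collagen gene Col1a2 by -0.59, while Col1a1 stood at -0.32 with 550 pairs in Control and 304 in miR-9-LOF. In the second pair none of the 3 losses was called, and Fn1 had the opposite sign (0.18, -0.29 to 0.68), with Tnc at -0.09 and Col1a2 at -0.38. Of 13 contractile genes 1 was lost and 0 gained, with a median of -0.35, against the same shares of promoters.

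Of the 23 genes of interferon and RNA sensing 6 gained and 1 was lost, with a median of 0.01, beside gains at 12.7% and losses at 8.28% of all promoters, and gains at 1789 of 7755 unmarked and 444 of 7110 intermediate ones. Those gained were Ifit1 (1.24), Ifit3 (1.35), Oas1a (1.04), Oasl1 (0.85), Mx1 (0.70) and Zbp1 (0.65), all induced by interferon. Ifit1 held 99 pairs in Control and 133 in miR-9-LOF, beside 54 with TGFB1 alone and 107 with TGFB1 and the antagomiR, and in the second pair it changed by 1.04 (0.49 to 1.65). Oasl1 (0.90) and Zbp1 (0.74) also passed the test in the second pair. Of the 6, Ifit1 and Mx1 were in the intermediate class and the others were unmarked. Against promoters of like level 2 of the 23 were gained, Ifit1 and Zbp1, and 0 lost, beside 2.96% gained and 4.45% lost over all promoters. Ddx58, which encodes the RNA sensor RIG-I, was lost (-0.68, -0.99 to -0.38).

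The counts of the next lists stand beside gains at 12.7% and losses at 8.28% of all promoters, and losses at 732 of 2795 marked ones. Of 75 cytosolic ribosomal protein promoters 2 gained and 5 were lost (median -0.26), and of 85 for oxidative phosphorylation 3 gained and 8 were lost (median -0.23). Among 25 cell cycle promoters 0 gained and 5 were lost (-0.40), and among 27 of chromatin looping and H3K4 methylation 1 and 7 (-0.51). Of these, 10 and 12 were marked. Among 13 promoters of the p53 response the counts were 0 and 2 (-0.25). Among 323 zinc finger genes, listed by symbols of Zfp and a number, they were 12 and 26 (-0.20). A KRAB domain was not checked. Relative to promoters of like level the gains and losses were 0 and 2 for cell cycle and 0 and 0 for looping and methylation. They were 0 and 0 for the p53 response and 4 and 32 for the zinc finger genes. For ribosomal proteins they were 2 and 8, and for oxidative phosphorylation 2 and 5. Of 15 sterol synthesis promoters 0 gained and 2 were lost (-0.37), namely Sqle (-0.78) and Srebf2 (-0.84). Of 53 replication-dependent histone promoters 2 gained and 3 were lost (-0.02). None of them was marked, and of the 7755 unmarked promoters 1789 gained, with a median of 0.49. Relative to promoters of like level 0 histone promoters gained and 4 were lost (median -0.39).

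The lists of developmental genes and of tissue-restricted families had medians above the median promoter. Of all tested promoters 12.7% gained, and of the 7755 unmarked ones 1789. Of 77 developmental genes, listed by symbol, such as Hox and Pax genes, 11 gained and 3 were lost (median 0.28). Their expression and Polycomb marks were not examined here. Relative to promoters of like level 2 gained and 1 was lost (median -0.02). Of 1413 promoters of tissue-restricted families such as olfactory receptors, only 550 reached the minimum number of pairs and were tested. Of the 550, 205 gained and 1 was lost, with a median of 0.81. The minimum was counted after Control had been thinned, so windows near it pass more readily where miR-9-LOF is high. This count and median may therefore be partly selected towards gains. Over all 1413 the median at full depth was 1.37 CPM in Control and 1.82 in miR-9-LOF. Relative to promoters of like level 10 of the 550 gained and 1 was lost, with a median of 0.20, beside 2.96% gained over all promoters. Of the 6 epithelial markers 1 gained and 0 were lost, and of 4 endothelial markers 2 gained and 0 were lost. Neither marker list had a member in the marked class, and their medians were 4.56 and 3.99 CPM in Control against 24.3 for the 10 fibroblast markers. Leukocyte and smooth muscle markers gave 0 calls of 3 each. Fibroblast markers gave 3 losses and 0 gains (median -0.46), beside losses at 8.28% of all promoters and at 732 of 2795 marked ones. Relative to promoters of like level 1 was lost. Of these markers 4, Vim, Prrx1, Pdgfra and Twist1, were in the marked class. Col1a1, Col1a2 and Pdgfrb were intermediate, and Col3a1, Fn1 and Thy1 were unmarked. Col3a1 (0.06) and Thy1 (0.33) stood above the median promoter.

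Of 21 widely cited miR-9 targets 1 gained and 3 were lost, with a median of 0.03, beside gains at 12.7% and losses at 8.28% of all promoters. The losses were at Foxo1 (-0.72), Foxp1 (-0.75) and Hes1 (-0.71), and the gain at Prdm1 (0.77). Of 11 microRNA pathway genes 0 gained and 2 were lost (-0.41). Of these 11, 8 were marked, a class in which 732 of 2795 were lost. The losses were at Ago3 (-0.81, -1.16 to -0.47) and at Drosha, which cuts primary microRNA transcripts (-0.70). In the second pair they stood at -0.39 and -0.51, with neither called. Contacts of Ago3 at 20 kb to 2 Mb went from 84 in matched Control to 37 in miR-9-LOF, a called change of -1.35 relative to the median. Of 11 genes for G-quadruplex helicases and binders 0 gained and 1 was lost (-0.41). Of the 6 genes named in the study, Ncl, Ep300, Zdhhc5, Lzts2, Hdac7 and Prap1, the last of which served there as a control gene without miR-9, 0 were called either way. The changes were -0.26 (-0.47 to -0.05), -0.51 (-0.73 to -0.29), -0.12, -0.04 and 0.05 for the others and 0.33 for Prap1. Ncl and Ep300 thus lay below the median promoter but short of the 1.5-fold limit, and Ncl held 686 pairs in Control and 372 in miR-9-LOF. Windows lay at the annotated gene start. Enrichment over the flanks there was 1.57 at Zdhhc5, 1.23 at Lzts2 and 0.47 at Hdac7, so these windows held little H3K4me3 signal. By ChIP, the study reported lower H3K4me3 at the Zdhhc5, Ncl and Lzts2 promoters with miR-9 blocked. Its CUT&Tag tracks were reported as reduced there and at Hdac7 and Ep300. Full-depth CPM, before matching, was lower in miR-9-LOF than in Control at Zdhhc5 (10.1 against 15.7), Lzts2 (10.4 against 15.97) and Ncl (29.5 against 52.2). Hdac7 (3.49 against 4.26) and the control gene Prap1 (3.17 against 4.11) were lower too, and Ep300 held 316 pairs against 634. The median promoter was also lower before matching, and the changes above are relative to it.

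Sequence features were compared over the promoters with a RefSeq sequence starting within 2 kb of the TSS used, 13965 of 20807. A G-quadruplex motif was counted as 4 runs of at least 3 G with 1 to 7 bases between them, on either strand. It was present in 23.1% of all these promoters and in 25.1% of the 12301 of them that were tested. Among the tested it stood in 33.9% of the lost, 17.7% of the gained, 30.02% of the marked and 21.9% of the unmarked. The median GC content of the 300 bases was 64.7% in lost and 53.3% in gained promoters. Among marked promoters the 641 with the motif had a median of -0.03 relative to the median marked promoter (quartiles -0.16 and 0.09) and the 1494 without it 0.02 (-0.13 and 0.15). In the second pair both medians were 0.00 to 2 decimals. The complement of the miR-9 seed in DNA, ACCAAAG, was searched on both strands. It stood in 3.89% of all promoters, 3.63% of the tested, 2.68% of the lost and 4.38% of the gained. Among marked promoters the 52 that held it had a median of 0.04, and the 2083 without it 0.00. Of the promoters printed above, Irs1 and Rbms1 hold the G-quadruplex motif and Atoh8, Nags and Asns do not, and none of the 5 holds the seed complement.

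The distance between paired ends grew. After matching, pairs between chromosomes rose from 16.3% in Control (95% interval 16.28 to 16.32%) to 17.5% in miR-9-LOF (17.47 to 17.51%), and were higher on 19 of 19 autosomes. Within chromosomes the share at 20 kb to 2 Mb went from 53.3% to 52.5% and was lower on 19 of 19 autosomes. Pairs under 1 kb went from 2.21% to 1.98%, those at 20 to 100 kb from 18.6% to 17.6%, and those over 10 Mb from 14.95% to 16.8%. The density of pairs was below that of Control up to about 300 kb and above it beyond, and the slope of log density on log distance from 100 kb to 1 Mb was -1.20 in Control and -1.14 in miR-9-LOF, shallower on 19 of 19 autosomes. Autosomes of 1 library are not replicates of the condition.

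The shift was also present outside promoters. With neither end near a TSS the share between chromosomes was 16.0% in Control and 17.2% in miR-9-LOF and the slopes were -1.17 and -1.11. With an end near a TSS the shares were 17.8% and 19.2% and the slopes -1.38 and -1.33. In the second pair the share between chromosomes rose too, from 14.5% to 18.5%, and the slope went from -1.18 to -1.16. There, however, the share at 20 kb to 2 Mb was higher with the antagomiR, 52.9% against 52.6%, on 18 of 19 autosomes, so the direction of that share differed between both pairs.

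**Figure D3:**
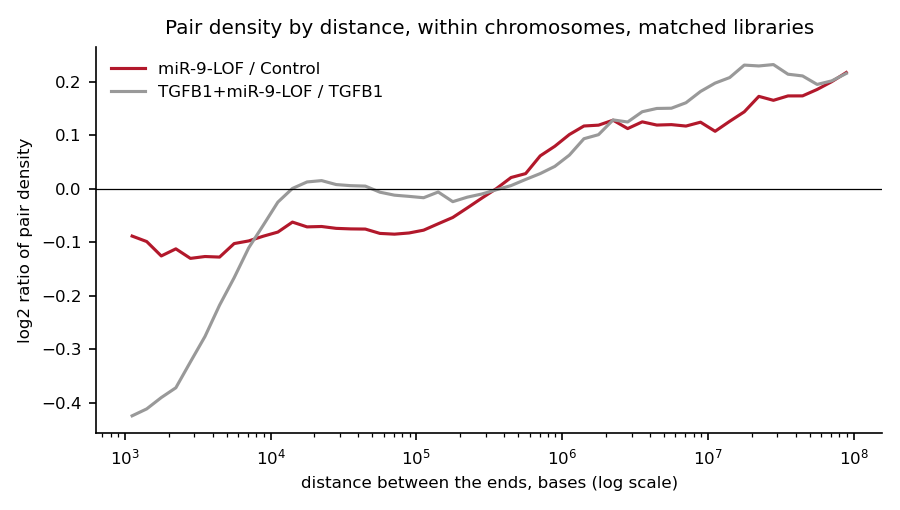
Log2 ratio of pair density against the distance between the ends, on a log axis, within chromosomes and after matching, for miR-9-LOF over Control and, in the second pair, with over without the antagomiR. Both lines lie above 0 beyond about 0.4 Mb, and the first reaches its lowest point, -0.13, near 2.82 kb.

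Promoter contacts, pairs of 20 kb to 2 Mb with an end within 2 kb of a TSS, moved with the promoters' own pairs. Of 16894 promoters with at least 20 such pairs, 469 gained contacts (2.78%) and 981 lost them (5.81%) relative to the median. Of those that gained, 414 were gained and 0 lost as promoters, and of those that lost, 718 were lost and 0 gained. Contacts are a part of the same pairs, so this agreement was largely given beforehand. Marked promoters made up 577 of the 981 losses and 2 of the 469 gains. Relative to promoters of like level 70 of the 469 gains and 135 of the 981 losses kept their call. Among the losses, Kctd5 went from 76 contacts in matched Control to 27 in miR-9-LOF, a change of -1.65 relative to the median. Tor1aip1 and Tor1aip2, which start close together on opposite strands, went from 52 to 19 and from 49 to 19. Qrsl1 and Rtn4ip1, which share a window, went from 83 to 31 and from 80 to 30, Commd2 from 56 to 23 and the kinase gene Stk24 from 89 to 37. Fst went from 138 to 60 (-1.37) and Zeb1 from 155 to 74 (-1.24).

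Gains of contacts were at windows with few pairs. Fam78a went from 10 to 50 contacts (2.09), Adcy8, an adenylyl cyclase gene, from 14 to 55 (1.76), the keratin gene Krt26 from 14 to 53 (1.71), Pglyrp2, which cleaves peptidoglycan, from 17 to 64 (1.70) and the phosphate transporter gene Slc34a1 from 13 to 49 (1.70). None of these 5 was marked.

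To separate contacts from pair number, the contacts of each promoter were set against its own pairs of under 20 kb. The odds of a contact were called changed at 0 promoters in the gaining direction (0.0%) and 0 in the losing direction (0.0%) of 16894 by Fisher's exact test. At an unadjusted p below 0.05 there were 636 (3.77%), and the smallest adjusted p was 1. The median log2 odds ratio was 0.04, and over marked promoters the SD of 0.40 was close to the 0.39 from counting. The counting interval reached 1.19 on the log2 scale on either side for the median promoter and 0.68 for the median marked one, so changes smaller than that were not detectable at single promoters at this depth. Over all promoters the share of contacts among pairs of under 2 Mb was 68.3% in Control (68.27 to 68.42%) and 69.0% in miR-9-LOF (68.96 to 69.11%). This difference was larger without matching, where the odds were called at 4 promoters, all gained. Thinning acted on each end near a TSS, so Control pairs with both ends there were thinned more than others. The odds and the share are therefore not free of the matching.

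**Figure D4:**
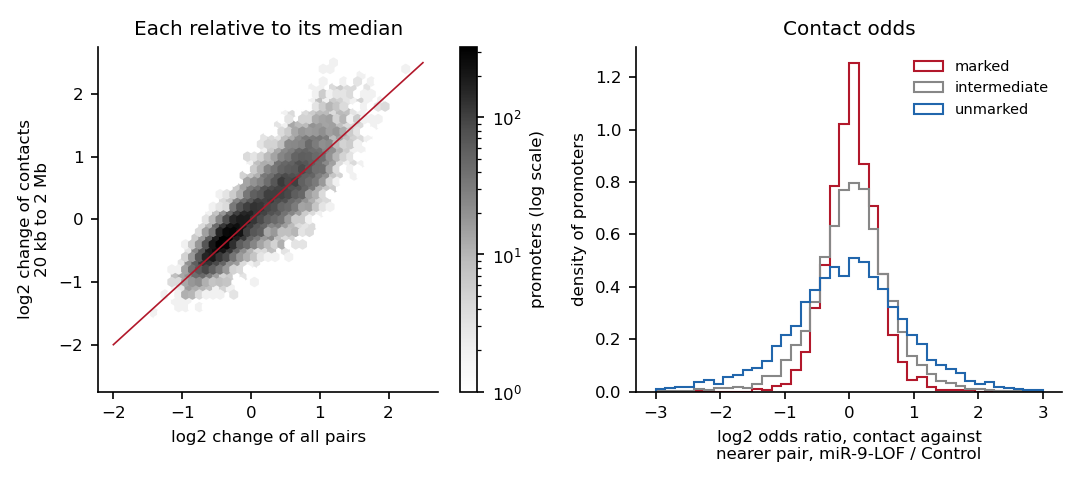
Left, log2 change of contacts at 20 kb to 2 Mb against the log2 change of all pairs of the promoter, each relative to its median, with darker cells for more promoters on a log colour scale and the line of equal change. Right, density of the log2 odds ratio of contacts against nearer pairs for the 3 classes, all centred near 0, with the narrowest spread in the marked class.

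Pairs that join 2 promoters were measured against pairs with 1 or no end near a TSS. At 20 kb to 2 Mb the log2 odds that both ends were near a TSS, relative to independent ends, were 0.42 in matched Control (0.41 to 0.44) and 0.94 in miR-9-LOF (0.93 to 0.96). At 20 to 100 kb they were 0.48 and 1.00, at 100 to 500 kb 0.33 and 0.87, and at 500 kb to 2 Mb 0.31 and 0.82. Between chromosomes the values were -0.43 and 0.05. TGFB1 had 0.77 and TGFB1+miR-9-LOF 1.04 at 20 kb to 2 Mb, so Control was the lowest of the 4 libraries, as it was the highest in the share of ends near a TSS. The part of that share in the odds was not tested.

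Compartments were nearly the same in both libraries. A leading principal component (PC1) of the correlation between bins was taken over 9328 bins of 250 kb. On each chromosome it was the component, among the leading ones, that best followed TSS density, so it can differ between libraries. PC1 correlated between miR-9-LOF and Control with Pearson's r = 0.97 across bins, which are not independent. By autosome r was 0.97 to 0.99, except 0.78 on chromosome 13. The log2 strength, like-type over unlike-type pairs at least 2 Mb apart, was 4.69 in Control and 4.76 in miR-9-LOF and higher on 17 of 19 autosomes. In the second pair it was 4.67 and 4.61 and higher on 6 of 19.

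A bin was called switched where PC1 changed sign and moved by at least 1. There were 10 switches from B to A (0.107%) and 19 from A to B (0.204%), and all 29 lay on chromosome 13. There PC1 followed GC content less than elsewhere, with r = 0.30 in Control against 0.57 to 0.76 on the other autosomes, and the log2 strength was 1.04, with only chromosome 7 as low, at 0.99. The second pair also had its 38 and 30 switches on chromosome 13, where its r was 0.58. At any mapping quality 254 bins switched, 21 of them on chromosome 13 and the rest on chromosome 7. In bins of 500 kb 15 of 127 switches lay on chromosome 13 and the rest on chromosome 7, and in bins of 100 kb 434 of 448 lay on chromosome 13. Without chromosome 13, 0 of the 250-kb bins switched and the strength was higher on 16 of 18 autosomes, with a median difference of 0.09. Among the largest switches the bins from A to B held Ly86, Ntrk2, Hecw1 with its neighbours, F13a1 and a cluster with Ocln and Cdk7, and those from B to A held Ccnh, Serpinb1a with its neighbours, Homer1 with Jmy, and Arsb. Of the bin with Ntrk2, PC1 was 1.31 in Control, -0.71 in miR-9-LOF, -0.86 with TGFB1 alone and 1.05 with TGFB1 and the antagomiR, so the antagomiR libraries had opposite signs.

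Coverage outside promoters moved along the compartments. Bins were split into 5 equal groups by PC1. In the group with the lowest PC1, the most B-like, the log2 ratio of ends not near a TSS was 0.24 (quartiles 0.16 and 0.32), and it fell to -0.11 (-0.20 and -0.04) in the most A-like group. The most B-like bins held 13.7% of such ends in Control and 15.8% in miR-9-LOF, and 28.5% and 26.01% in the most A-like group. Their median GC content was 38.5% and 45.6%, and over 5 such groups of GC the ratio went from 0.24 to -0.08, so compartment and GC content cannot be told apart here. In the second pair the outermost groups of PC1 gave 0.10 and -0.04, with smaller steps in the same direction.

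**Figure D5:**
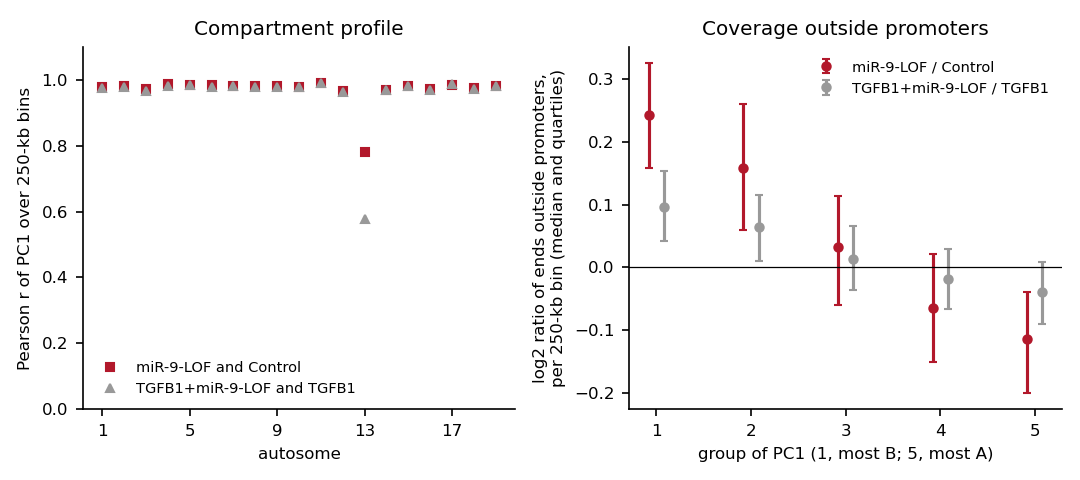
Left, Pearson's r of PC1 over 250-kb bins for each autosome, for miR-9-LOF and Control and for TGFB1+miR-9-LOF and TGFB1, with chromosome 13 low in both, at 0.78 and 0.58. Right, log2 ratio of ends outside promoters per bin in 5 groups of PC1, as median with quartiles, falling from 0.24 to -0.11 in the first pair and from 0.10 to -0.04 in the second.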

How the data were processed

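H3K4me3 HiChIP-seq of 4 libraries, 1 per condition, was used. The authors aligned reads to mm10 with HiC-Pro at default settings, removed duplicates and accepted valid pairs irrespective of distance. The deposited lists hold positions, 1 line per pair, and a mapping quality score per end, which served only as a filter. Lines were counted here with Python, numpy, scipy and pandas. TSS were gene starts of GENCODE M21, and sequences came from RefSeq GRCm38.p6. Control was thinned (seed 11, keeping probability 0.592 for each end near a TSS). Counts were compared with a two-sided exact binomial test against the median ratio, with Benjamini-Hochberg adjustment, in pairs of single libraries. Log2 ratios had 0.5 added to each count. Of 200 simulated promoters changed 2-fold among 17584 tested, 72.0% were recovered with 1 other called, and of those changed 1.5-fold among 17588, 21.5%. A 1.5-fold change lies at the limit for a call. The simulated counts held counting error only and 1 ratio for all unchanged promoters, unlike these data. Named promoters were the 10 largest calls each way with at least 200 pairs (contacts, 5 with at least 60), called members of the lists described gene by gene (other lists are given as counts) and the largest switches. The 10 largest relative to the median marked promoter, and the marked class, were added after the data had been seen. The members and gene lists were chosen with earlier results of these data known.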

Additional observations from a re-analysis of the deposited data

Results flagged for a closer look

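Relative to the median promoter, miR-9-LOF and Control differed in one direction at the promoter of Zfp180, a zinc finger gene, and TGFB1+miR-9-LOF and TGFB1 in the other. The log2 change relative to the median promoter was 0.35 (counting interval 0.02 to 0.69) without TGFB1 and -0.42 (-0.81 to -0.03) with it. Neither interval reached 0, and the difference between both changes was not tested. Zfp180 is in the marked class, whose median in the second pair was itself -0.32 relative to the median promoter. That lies inside the second interval, so the negative value with TGFB1 cannot be told apart from that of marked promoters at large. Zfp180 was the only named promoter of the 2 groups (relative to the median promoter and to the median marked promoter) with such opposite intervals.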

How the results depend on the processing

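No paired analysis was possible because each condition had 1 library and the labels carry no replicate numbers. The direction held for the share of ends near a TSS, the share at 20 kb to 2 Mb, the share between chromosomes, the decay slope, the compartment strength and the contact share under every alternative run on them. The median promoter, 0.17 in log2 of scaled pairs (per 1000000) after matching, was -0.49 without matching, -0.055 with at least 100 pairs, 0.25 with at least 20, 0.21 at any mapping quality, 0.029 in windows of 1 kb and 0.20 in windows of 5 kb. The log2 ratio of shares near a TSS, -0.72, was -0.72 at any mapping quality, -0.84 within 1 kb and -0.51 within 5 kb. Promoters gained, 2242, numbered 1394 and lost, 1462, numbered 424 in windows of 1 kb. They were 523 and 785 against like level, 23 and 37 at promoters at least 4-fold over their flanks with the flanks subtracted, 24 and 18 relative to the median marked promoter (added after seeing the data), and 1091 and 53 at 2-fold. Losses alone were 3924 at a lower fold limit, 2269 with at least 20 pairs and 262 with at least 100. Over 5 other thinnings, each end counted, like GC, no pairs under 1 kb, no matching, 5-kb windows and any mapping quality both counts stayed within 1.5 times. In 5-kb windows Dqx1 was at -0.53 and Smim3 at -0.028, opposite to their values above. The difference in the share at 20 kb to 2 Mb, -0.82 percentage points, was -0.60 without matching and -0.74 outside promoters. That between chromosomes, 1.19 points, was 1.14, 1.16 and, at any mapping quality, 1.24. The slope difference, 0.053, was 0.072 without matching and 0.035 over 20 kb to 2 Mb. The 29 switches became 448 in bins of 100 kb, 127 in bins of 500 kb, 163 outside promoters, 254 at any mapping quality and 0 in the 250-kb bins without chromosome 13 (added after seeing the data). Contacts gained, 469, and lost, 981, were 1073 and 1709 in windows of 5 kb, 305 and 587 at 20 to 500 kb, 121 and 197 against like level and 14 and 23 relative to the median marked promoter. Gains alone were 902 without matching and 1450 in windows of 10 kb, and losses alone 194 with at least 60 pairs. The difference in contact share, 0.69 points, was 2.23 without matching. Contact odds were called at 4 promoters without matching, all gained. The cause of these differences was not tested. Depth limits single promoters: of simulated 1.5-fold changes 21.5% were recovered for promoters and 8.0% for contacts.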
